A study of Mus musculus with 8 samples.

Results

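A set of 10 nuclear genes that keep and read the mitochondrial genome, or that set how much mitochondrion a cell makes, was examined in newborn mouse skin. Tfam, Tfb1m, Tfb2m, Polrmt, Polg, Polg2, Twnk, Nrf1, Gabpa and Ppargc1a were chosen by name, as regulators of the mitochondrial genome, by a rule that uses no peak value, though with earlier results of these data known. They are 10 of 26180 genes with a curated RefSeq transcript. Peaks of 4 antibodies were looked up at each of them: MOF (KAT8), the acetyltransferase of lysine 16 on histone H4, mapped by ChIPseq, and Rfx2, H3K4me3 and H3K27ac, mapped by Cut&Run, in which a nuclease tethered to the antibody cuts out the bound DNA. H3K4me3 marks active promoters, H3K27ac marks active promoters and enhancers, and Rfx2 is a transcription factor that reads the X-box of ciliary genes. All libraries came from wild-type mice, sampled as total epidermis on postnatal day 0.5, and no transgene, deletion or treatment is named for any of them. There was 1 peak list per antibody, so no value below has a replicate error and no test between groups was possible. Total epidermis holds several cell types, and a mark on a few cells cannot be told apart from a weak mark on all of them. The H3K4me3 list is labelled as the repeat library but its name lacks the mark of a repeat, so its library is not certain. The MOF list holds 17546 regions, a number other than the one given for MOF in the study's methods, so it may not be the final set of MOF peaks, and each MOF count and share below rests on it.

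The mitochondrion carries its own small circular genome, whose genes encode core subunits of the respiratory chain. It is transcribed by the RNA polymerase POLRMT with the help of TFAM and TFB2M, and copied by the polymerase POLG with its accessory subunit POLG2 behind the helicase TWNK (Twinkle). All of these proteins are made from nuclear genes, many of which are switched on by NRF1 and by GABP, a factor whose DNA-binding subunit is encoded by Gabpa, while PGC-1α, encoded by Ppargc1a, is the inducible coactivator that drives mitochondrial biogenesis in brown fat, muscle and liver.

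The promoter was taken as 1 kb upstream to 100 bp downstream of a transcription start site (TSS), and a peak was counted there when it overlapped this window by at least 1 bp. An H3K4me3 peak lay at the promoter of 10 of the 10 genes, against 54.0% of all genes. H3K27ac lay at 9 of 10, the exception being Ppargc1a, against 44.1% of all genes. MOF lay at 2 of 10, Polg2 and Gabpa, against 23.7% of all genes and 42.0% of those with H3K4me3 at the promoter. Both of these carried MOF, H3K4me3 and H3K27ac together, as did 21.0% of all genes. Rfx2, whose library was the shallowest of the 4 by the study's account, lay at 0 of 10, against 1.21% of all genes. H3K4me3 and H3K27ac were thus each at a higher share of the group than of all genes. Since all 10 had H3K4me3, genes with that mark are the closer measure for H3K27ac. Of the 14132 such genes, 5510 also had H3K27ac and MOF, and 5666 had H3K27ac without MOF or Rfx2. H3K27ac was common among them too, so its 9 of 10 cannot be read as particular to this group. With the centre of the peak required in the window, H3K4me3 lay at 7 of 10 against 25.5% of all genes, but H3K27ac at 3 of 10 against 26.2%, so that its share was then close to that of all genes. MOF and Rfx2 were no more common than in all genes in the main window. For MOF that depended on the window and the annotation, since wider windows gave 3 of 10 (24.3% to 27.8% of all genes) and GENCODE transcripts 4 of 10 (14.1%). Of 10 keratinocyte markers, 7 had H3K4me3, 5 had H3K27ac (near the 44.1% of all genes) and 8 had either at the promoter (not Krt1 or Krt10). MOF lay at 1 of these 10, and at 2 of 5 markers of dermal fibroblasts. Of the markers of muscle (0 of 3), liver (0 of 3), T cells (0 of 2) and Langerhans cells (0 of 4) none had either mark. H3K4me3 without H3K27ac lay at 2 of 5 markers of dermal fibroblasts, 1 of 3 of endothelium, 1 of 2 of brown fat and 2 of 3 of Merkel cells, and 2 of 5 melanocyte markers had H3K4me3.

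**Figure D1:**
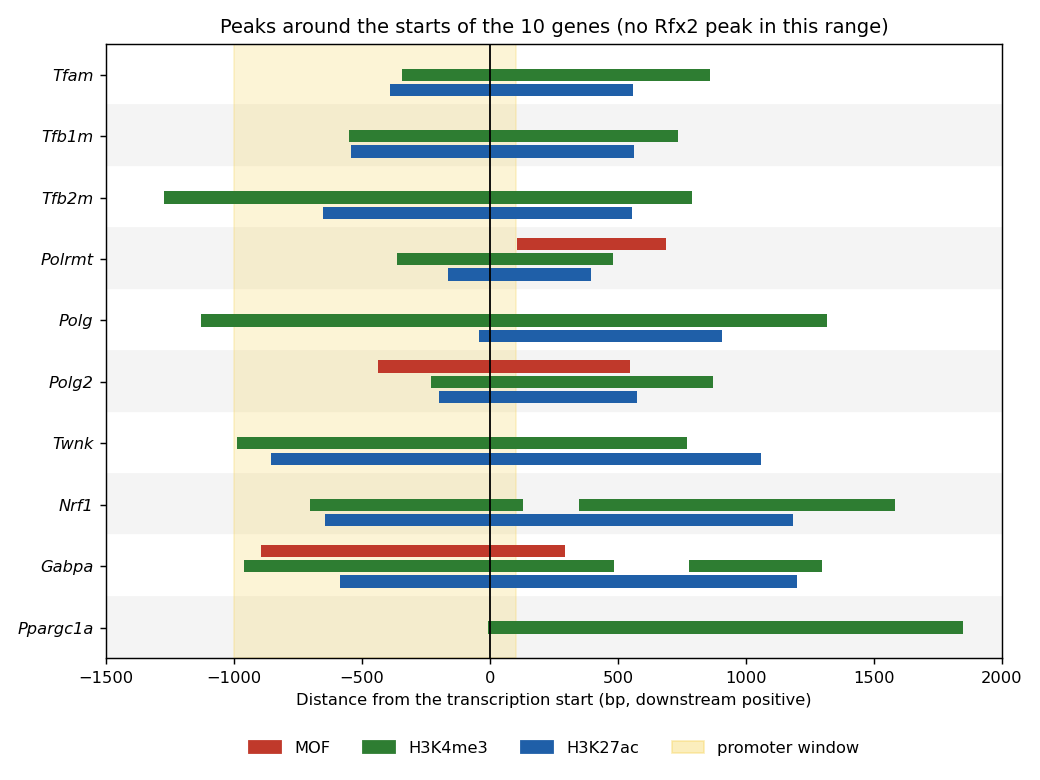
Peaks of MOF, H3K4me3 and H3K27ac drawn to scale against the main TSS of each gene (x axis, bp, transcription running to the right), with the promoter window shaded. Each bar is 1 peak of 1 library. The TSS is covered by H3K4me3 in 10 of 10 genes and by MOF in 2, and the MOF peak of Polrmt begins 104 bp downstream.

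Promoter sequence just before the TSS is shown for 6 of the genes, and it is not in each of them sequence under a MOF peak. Each stretch ends at the base before the TSS, reads 5′ to 3′ on the strand of the gene, and comes from RefSeq (build GRCm38.p6). Capitals mark matches to a motif, searched on both strands: GCGCANGCG or its core TGCGCA for NRF1, CCGGAAGT for GABP, GGGCGG for SP1 and ANATGGCGG for YY1. Of the genes without MOF at the promoter, Tfam, Polg and Twnk had a GABP site. Tfb1m, Tfb2m and Nrf1 had none and are not shown, so the stretches are no comparison of genes with and without MOF. Polg2 and Gabpa had MOF over the TSS, Polrmt had it just downstream, and Tfam, Polg and Twnk had none there. They lie at chr11:106779538-106779687 (minus strand), chr16:84835023-84835123 (plus), chr10:79746582-79746731 (minus), chr10:71238045-71238194 (minus), chr7:79466274-79466423 (minus) and chr19:45006443-45006557 (plus).
Polg2: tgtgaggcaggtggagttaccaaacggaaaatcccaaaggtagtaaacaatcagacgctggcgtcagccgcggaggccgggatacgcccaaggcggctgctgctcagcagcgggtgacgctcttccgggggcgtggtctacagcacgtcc
Gabpa: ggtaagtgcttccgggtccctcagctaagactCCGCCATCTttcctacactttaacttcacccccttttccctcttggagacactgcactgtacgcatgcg
Polrmt: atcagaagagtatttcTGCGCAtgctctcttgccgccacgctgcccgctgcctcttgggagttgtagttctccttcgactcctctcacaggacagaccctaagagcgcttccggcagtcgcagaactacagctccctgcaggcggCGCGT
Tfam: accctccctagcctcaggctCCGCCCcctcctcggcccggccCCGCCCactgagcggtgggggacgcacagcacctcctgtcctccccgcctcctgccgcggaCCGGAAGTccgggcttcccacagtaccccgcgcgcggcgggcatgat
Polg: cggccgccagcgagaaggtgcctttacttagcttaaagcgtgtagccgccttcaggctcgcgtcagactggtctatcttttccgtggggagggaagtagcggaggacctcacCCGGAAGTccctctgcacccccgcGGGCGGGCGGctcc
Twnk: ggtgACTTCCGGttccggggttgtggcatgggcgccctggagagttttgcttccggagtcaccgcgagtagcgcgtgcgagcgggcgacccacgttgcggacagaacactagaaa

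The RefSeq promoter table (250 bases before to 50 after a TSS, 32851 promoters) held the main promoter of 9 of the 10 genes. A GABP site was found in 3 of these 9, in Tfam (47 bases before the TSS), Polg (38 bases before) and Twnk (111 bases before, on the other strand), against 3.89% of all promoters. The Twnk match (45006447 to 45006454) lies beside the TSS of the opposite gene Mrpl43 (45006442) and cannot be assigned to Twnk alone. An NRF1 site was found in Polrmt, where 2 overlapping matches crossed and followed the TSS, the first beginning 5 bases before it, and in Tfb2m, 12 bases after the TSS, against 6.25% of all promoters. The NRF1 core was in the same pair of promoters, in Polrmt 134 bases before the TSS and again just after it, and in Tfb2m 181 bases before, against 7.76%. SP1 sites were in 6 of 9 (Tfam, Tfb1m, Tfb2m, Polg, Twnk and Nrf1), against 35.7% of all promoters. Gabpa had a YY1 site 69 bases before its TSS (1.86% of all promoters). The CCAAT box was in Polg alone (37.4%), on the other strand, at the TSS and 15 bases after it. No member held CACGTG (E-box, 7.15%), TGACGTCA (cyclic AMP response element, 1.79%) or the X-box (1.53%). In Polg2, which had the strongest MOF peak of the group, none of these motifs was found. A match is a description of letters and not a measured binding site.

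These promoters were CpG-rich against all promoters. Promoters with H3K4me3, to which all of them belong, were not taken as a background, here or for the motifs. GC content ran from 52% in Polrmt to 77% in Nrf1 with a median of 60% over the 9 genes, against 52.7% over all promoters. The ratio of observed to expected CpG ran from 0.586 in Tfam and 0.623 in Tfb1m to 1.04 in Polrmt and 1.07 in Twnk, with a median of 0.942 against 0.384. Each of the 9 lay above the median of all promoters in CpG ratio, whether or not it had a MOF peak (0.764 in Polg2 and 0.849 in Gabpa).

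The transcription machinery was marked at every gene. Polrmt, the polymerase itself, lies on chromosome 10 on the minus strand with its TSS at position 79746581 (mm10). Its H3K4me3 peak had the highest fold enrichment of the 10 genes, 12.2, and spanned 365 bp upstream to 482 bp downstream of the TSS. Its H3K27ac peak had the lowest of the 9 genes with one, 5.05, and was also the narrowest, at 558 bp. Height in one mark did therefore not carry over to the other in this gene, which stood at the 91.4th percentile of H3K4me3 and the 26.9th of H3K27ac among all promoter peaks of the same list.

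Tfam, which packages and bends mitochondrial DNA and opens its promoters, lies on the same chromosome with its TSS at 71238044. It stood high in both marks, with an H3K4me3 fold enrichment of 10.5 over 1206 bp and an H3K27ac fold enrichment of 9.85 over 950 bp, the latter the highest of the group and at the 90.4th percentile. The summits lay 393 and 170 bp downstream of the TSS. No MOF peak was found within 118 kb of it. Tfb2m (chromosome 1, TSS at 179546276), the transcription factor that melts the promoter for POLRMT, had a wide H3K4me3 peak of 2066 bp (91.2nd percentile). The peak was low by fold enrichment (6.53, 33rd percentile) but not by −log10 q (59.1, 75.3rd percentile). Tfb2m also had an H3K27ac peak of 1208 bp (6.71). Its paralog Tfb1m (chromosome 17, TSS at 3557755), which methylates the small ribosomal RNA of the mitochondrion, had a taller and narrower H3K4me3 peak of 1286 bp (11.4, 87.6th percentile) and an H3K27ac peak of 1107 bp (6.39). The nearest MOF peaks were 12.4 kb from the Tfb2m TSS and 106 kb from that of Tfb1m.

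Among the replication genes, Polg and Polg2 encode the catalytic and the accessory subunit of 1 enzyme and differed in all 3 lists. Polg (chromosome 7, minus strand, TSS at 79466273) had the widest H3K4me3 peak of the group, 2450 bp from 1131 bp upstream to 1318 bp downstream, with a fold enrichment of 6.59. Polg2 (chromosome 11, minus strand, TSS at 106779537) had an H3K4me3 peak of 1100 bp with a fold enrichment of 10.1. H3K27ac at Polg was higher by fold enrichment (8.16 over 952 bp) than at Polg2 (6.70 over 775 bp) but lower by −log10 q (17.2 against 19.8), and at Polg it began only 43 bp upstream of the Polg TSS. MOF covered the TSS of Polg2 and not that of Polg, whose nearest MOF peak lay inside the gene, 13.8 kb downstream. A second annotated TSS of Polg, 2393 bp downstream, had no peak of any list at its own promoter window. Without a second library of each antibody the size of these differences cannot be set against an error.

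Twnk, the helicase, starts on chromosome 19 at 45006558 (plus strand), 116 bp from Mrpl43, which runs in the opposite direction and encodes a protein of the mitochondrial ribosome. The pair shared 1 H3K4me3 peak of 1760 bp (fold enrichment 8.21) and 1 H3K27ac peak of 1914 bp (7.11), the latter at the 98.5th percentile by width and the widest H3K27ac peak of the group. A second start of Twnk 895 bp upstream fell under the H3K4me3 peak and just outside the H3K27ac peak, which reached 855 bp upstream, and another 2559 bp downstream had none in its window. The nearest MOF peak was 8.28 kb downstream, 208 bp from the TSS of Lzts2.

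The 3 regulators of nuclear genes fell into 3 different states. Gabpa (chromosome 16, plus strand, TSS at 84835124) carried MOF and both marks. Nrf1 (chromosome 6, plus strand, TSS at 30047988) carried both marks and no MOF at the promoter, and its H3K4me3 promoter peak was the lowest of the 10 genes, at 5.70 over 835 bp (22.9th percentile). A second H3K4me3 peak of 1234 bp (6.60) followed it inside the gene from 349 bp downstream, and 1 H3K27ac peak of 1828 bp (7.03) bridged the gap between them, overlapping both without reaching the outer end of either. Gabpa had the same arrangement, with H3K4me3 peaks of 1447 bp (7.42) over the TSS and of 521 bp (5.58) from 779 bp downstream, bridged in the same way by an H3K27ac peak of 1790 bp (7.05). The 2 other starts of Nrf1, 28333 and 39177 bp downstream, had no peak of any list in their windows.

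Ppargc1a (chromosome 5, minus strand, TSS at 51553921) was the only member without H3K27ac. Its H3K4me3 peak of 1854 bp was of ordinary height (fold enrichment 8.23, 54.6th percentile), but it lay almost wholly inside the gene. It reached 6 bp upstream of the TSS and 1847 bp downstream, with the summit 1296 bp downstream, and covered 9.72% of the promoter window, against 30% to 100% in the other 9 genes. With the peak centre required inside the window it was not counted, and neither were Tfam and Polg2. The same rule left H3K27ac at Tfam, Tfb1m and Tfb2m. The nearest H3K27ac peak was 29.3 kb upstream of the TSS (fold enrichment 3.56), the nearest MOF peak 214 kb away, and the start annotated 13804 bp further upstream had no peak of any list. H3K4me3 alone was found at 9.25% of all genes. Ppargc1a shared this state with 5 of 69 related genes, among them its paralog Ppargc1b and the nuclear receptors Pparg and Esrrg.

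**Figure D2:**
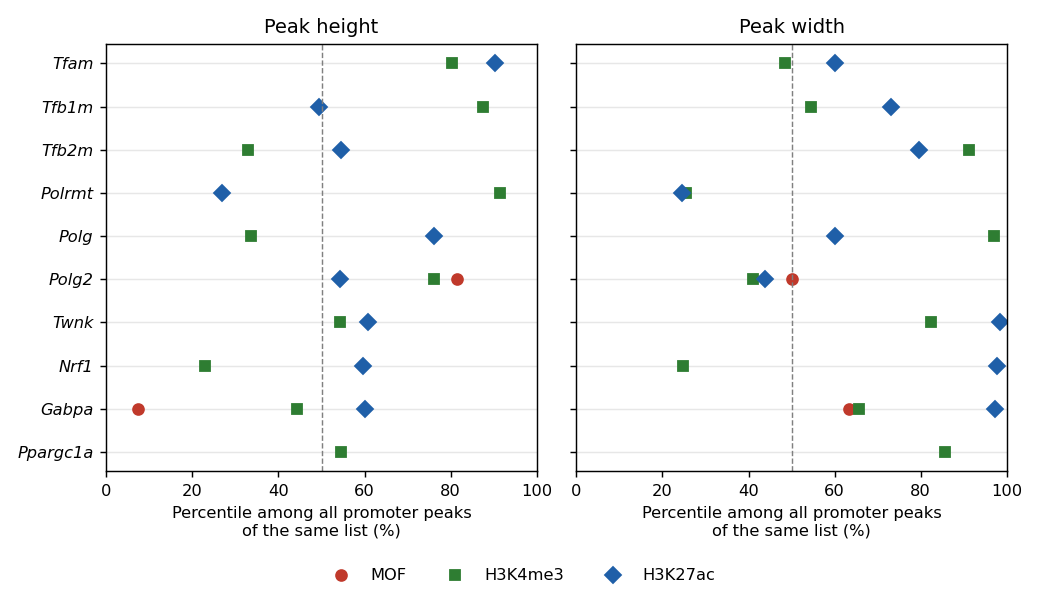
Height (left; fold enrichment, or score for MOF) and width (right) of the promoter peak of each gene as a percentile among all promoter peaks of the same list, with the 50th percentile dashed. Each point is 1 peak of 1 library. For H3K4me3 heights the points run from 22.9 in Nrf1 to 91.4 in Polrmt, and for MOF they lie at 7.49 in Gabpa and 81.5 in Polg2.

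Over the group, the H3K4me3 fold enrichment at the promoter ran from 5.70 to 12.2 with a median of 8.22, against 7.87 over all 13315 H3K4me3 promoter peaks. In order, Polrmt, Tfb1m, Tfam and Polg2 stood above 10, Ppargc1a (8.23), Twnk (8.21) and Gabpa (7.42) in the middle, and Polg (6.59), Tfb2m (6.53) and Nrf1 (5.70) below. By −log10 q the order was another, with Twnk highest (71.7) and Polrmt at 53.2. Neighbours in either order cannot be told apart without a replicate. The H3K27ac fold enrichment ran from 5.05 to 9.85 with a median of 7.03 over 9 genes, against 6.44 over all its promoter peaks. By fold enrichment the median percentile of the group was 54.5 for H3K4me3 and 59.7 for H3K27ac, and by −log10 q it was 79.5 and 71.8, so the place of the group among all marked promoters depended on the measure of height. H3K27ac peaks were wider (median 1107 bp) than all H3K27ac promoter peaks (839 bp), with 7 of 9 above that median, and H3K4me3 peaks differed less (median 1366.5 against 1227 bp, 6 of 10 above). Each mark's peak spanned the TSS wherever it was present, and the summit lay downstream of it in 8 of 10 genes for H3K4me3 and in 6 of 9 for H3K27ac.

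MOF was present over the TSS of only Polg2 and Gabpa, at very different heights. The Polg2 peak (106778991 to 106779975 of chromosome 11) ran from 438 bp upstream to 546 bp downstream with a score of 974, at the 81.5th percentile of the 5221 MOF promoter peaks. The Gabpa peak (84834230 to 84835417 of chromosome 16) ran from 894 bp upstream to 293 bp downstream with a score of 375, at the 7.49th percentile. The file gives a narrower inner block within each region. In Polg2 this block lay from 401 bp upstream to 109 bp downstream of the TSS, and in Gabpa from 104 bp upstream to 268 bp downstream, so that it covered the TSS in both. The Polg2 peak covered 452 bp of coding exon, and the Gabpa peak 294 bp of an untranslated first exon. Repeats (soft-masked in the reference) made up 0.711% of the bases at Polg2 and 9.85% at Gabpa, against a median of 9.54% over all MOF peaks.

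Polrmt stood at the edge of the rule. Its MOF peak (79745892 to 79746477 of chromosome 10, score 383) began 104 bp downstream of the TSS, just outside the window that ends at 100 bp, and its inner block lay 207 to 502 bp downstream. With a window of 500 bp, 1 kb or 2.5 kb on either side of the TSS, Polrmt was counted. Gabpa was lost when MOF peaks below the median score were dropped, which left Polg2 alone (1 of 10), against 14.6% of all genes. With the starts of GENCODE transcripts, which include short internal ones, Polrmt and Polg were both added. The other 7 genes had no MOF peak under any of the wider windows. Their nearest MOF peak lay between 8.28 kb (Twnk) and 214 kb (Ppargc1a) from the main TSS, and in 3 of them, Tfam, Tfb1m and Ppargc1a, it was more than 100 kb away. Measured from the closest annotated start of each gene, the median over all 8 members without MOF in the main window was 13.7 kb, against 25.7 kb over all 8198 genes with H3K4me3 and no MOF at the promoter, and 3 of the 8 lay above the latter.

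H3K4me3 did not separate the genes with MOF from those without. Polg2 (10.1) and Gabpa (7.42) lay within the range of the 8 others by fold enrichment, and by width (1100 and 1447 bp) too. Over all genes with H3K4me3 the fold enrichment had a median of 8.06 with MOF and 8.02 without it, and the peak width a median of 1457 and 1184.5 bp.

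Of the members, 4 started within 1 kb of a gene running in the opposite direction, against 14.9% of all genes and 24.3% of those with H3K4me3. These were Tfb1m with 1700102H20Rik (69 bp), Gabpa with Atp5j (102 bp), Twnk with Mrpl43 (116 bp) and Tfb2m with Cnst (253 bp). Each pair shared 1 H3K4me3 and 1 H3K27ac peak, and 1 pair shared a MOF peak. That was Gabpa with Atp5j, which encodes a subunit of the mitochondrial ATP synthase, so this MOF peak and its marks cannot be assigned to 1 of the 2 genes. The marks described for Tfb1m, Tfb2m and Twnk are shared in the same way and cannot be assigned either. Polg2 had no such partner.

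Peaks inside the genes and outside the promoter window were counted next. MOF peaks lay in the bodies of 3 members (17.5% of all genes), H3K4me3 in 2 (20.3%), H3K27ac in 1 (20.5%) and Rfx2 in 0 (0.183%). Besides the Polrmt peak, which adjoins the promoter window, MOF lay in Polg at 79451582 to 79452475 of chromosome 7 (score 653, 894 bp wide), where it covered 461 bp of coding exon and no repeat, and in Nrf1 at 30102151 to 30102463 of chromosome 6 (score 900, 313 bp), 54.2 kb downstream of the TSS, where it covered 141 bp of coding exon. Neither overlapped H3K4me3 or H3K27ac, as no peak of either mark lay there. The H3K4me3 peaks were those next to the promoters of Nrf1 and Gabpa. The H3K27ac peak was in an intron of Nrf1, 73626 to 74483 bp downstream (fold enrichment 5.53, 858 bp).

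The length of a gene bears on these counts. Only Nrf1 (105471 bp) and Ppargc1a (113477 bp) spanned over 100 kb, and among all 2432 genes of at least that span 60.7% had a MOF peak in the body, 52.2% an H3K4me3 peak and 51.2% an H3K27ac peak. Nrf1 had all 3 and Ppargc1a had none.

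**Figure D3:**
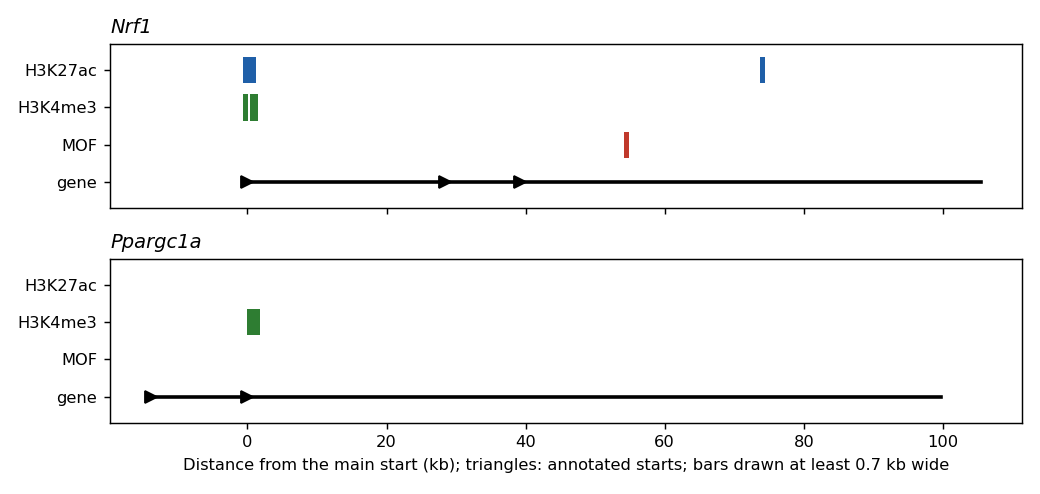
Peaks of MOF, H3K4me3 and H3K27ac along the 2 longest genes of the group, against the distance from the main TSS in kb, with annotated starts as triangles. Each bar is 1 peak. Nrf1 had a MOF peak 54163 bp and an H3K27ac peak 73626 bp inside the gene, and Ppargc1a had only its H3K4me3 peak at the TSS.

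A wider list of 69 genes that act with the 10 was looked up in the same way. H3K4me3 lay at 65 of them (94.2%), H3K27ac at 60 (87%), MOF at 28 (40.6%, 95% exact interval 28.9 to 53.1%) and Rfx2 at 0. The 10 genes had MOF at 20% (2.52 to 55.6%), so the intervals overlapped. Among those with H3K4me3 the related genes had MOF in 43.1%, close to the 42.0% of all genes. MOF scores at these promoters ran from 357 to 1980 with a median of 644, against 651 over all MOF promoter peaks.

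By group, and to be read against 23.7% of all genes and 42.0% of those with H3K4me3, MOF lay at 9 of 15 genes for processing of mitochondrial RNA (Lrpprc, Slirp, Mtpap, Elac2, Trmt10c, Prorp, Fastk, Fastkd1 and Fastkd2), at 5 of 13 that supply nucleotides for mitochondrial DNA (Rrm2b, Sucla2, Suclg1, Mpv17 and Samhd1), at 4 of 11 for replication and packaging of that DNA (Top1mt, Dna2, Exog and Atad3a) and at 3 of 6 for its transcription (Tefm, Mterf3 and Mterf4). Among nuclear factors of biogenesis it lay at 7 of 18 (Ppara, Creb1, Hcfc1, Thra, Nrip1, Sp1 and Myc), and among upstream kinases and deacetylases at 0 of 6. With 6 to 18 genes a group the exact intervals were wide, from 0 to 45.9% for the kinases and deacetylases and from 32.3 to 83.7% for RNA processing, and each held the 42.0%. The interval of RNA processing lay above the 23.7%, and those of the other groups held it. The 42.0% is a share of genes with H3K4me3, which some genes of these groups lacked. The highest score, 1980, was at Tefm, the elongation factor of the mitochondrial polymerase, the 98.9th percentile of MOF promoter peaks, followed by Sp1 (1110), a general activator of GC-rich promoters, and Mtpap (1020), the mitochondrial poly(A) polymerase. The lowest were at Fastkd1 (357), Nrip1 (375), a corepressor of nuclear receptors, and Samhd1 (423), a nucleotide triphosphatase.

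Of the related genes, 4 had no H3K4me3 at the promoter: Tymp (thymidine phosphorylase), Esrrb, Perm1 (a regulator of muscle mitochondria) and Camk2a (a kinase best known from neurons). Another 5 had H3K4me3 and no H3K27ac, as Ppargc1a did: Ppargc1b (fold enrichment 5.19), Esrrg (6.77), Pparg (6.93), Mterf1a (14.2) and Mterf1b (13.5). Mterf1a and Mterf1b are near-identical copies, so reads from one may have been placed at the other. Both marks without MOF, the state of 7 members, was found at 32 of the 69 and at 21.6% of all genes.

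For comparison, MOF lay at the promoters of 56 of 78 genes of the mitochondrial ribosome (71.8%, 60.5 to 81.4%) and 28 of 42 genes of complex I (66.7%, 50.5 to 80.4%). The interval of the 10 regulators, 2.52 to 55.6%, lay below that of the ribosomal genes and overlapped that of complex I. With 500 bp to 2.5 kb on either side the shares were 30% for the regulators, 74.4% for the ribosomal genes and 66.7% for complex I, and the interval of the regulators (6.67 to 65.2%) then overlapped that of the ribosomal genes (63.2 to 83.6%). With MOF peaks below the median score dropped, the shares were 10% (0.253 to 44.5%), 55.1% (43.4 to 66.4%) and 42.9%, and the first 2 intervals again overlapped. They also overlapped with the peak centre required in the window (2.52 to 55.6% against 46 to 68.8%) and with GENCODE transcripts (12.2 to 73.8% against 61.8 to 82.5%). With coding transcripts, or with all RefSeq transcripts, they stayed apart as in the main window (2.52 to 55.6% against 60.5 to 81.4%). The intervals count genes as if they were independent, cover counting error only, and are no test of the difference.

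**Figure D4:**
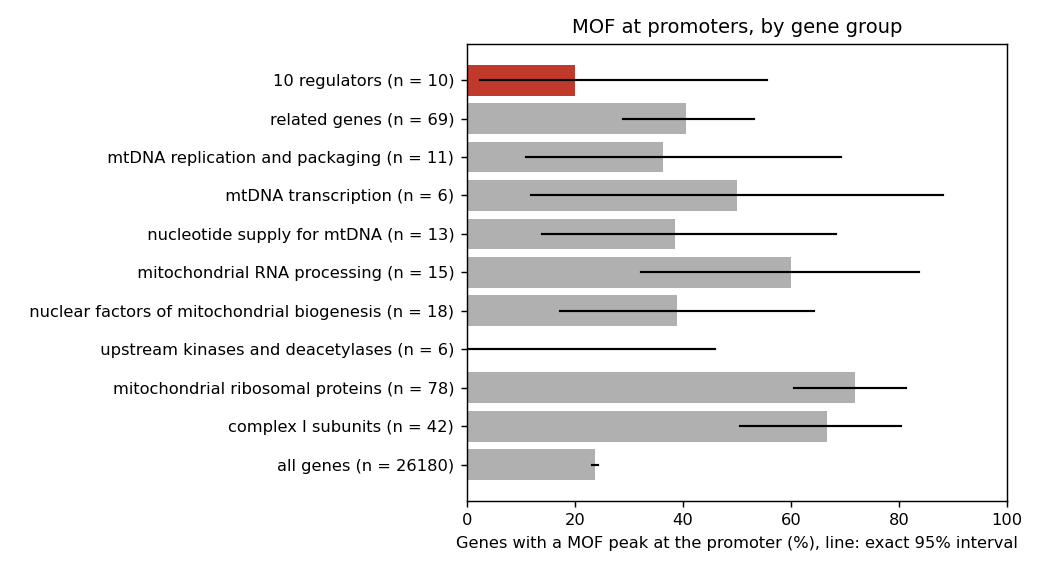
Share of genes with a MOF peak at the promoter (bars, percent, axis from 0) with the exact 95% interval (lines) for the 10 regulators, the 69 related genes and their 6 groups, genes of the mitochondrial ribosome and of complex I, and all genes. The regulators stood at 20% and the ribosomal genes at 71.8%.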

How the data were processed

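Peak lists were analysed for 4 of the 8 samples (MOF, Rfx2, H3K4me3 and H3K27ac). Per the submitters' processing notes, the authors aligned reads to mm10 with Bowtie2 and called peaks with MACS2. A control library and a list of excluded regions are not given in the sources used here. The Rfx2, H3K4me3 and H3K27ac lists hold, as deposited, a score, the ratio called fold enrichment, −log10 p and −log10 q, and the summit. The deposited MOF list holds regions with a score of unstated scale and inner blocks, and its number of regions is not the one in the study's methods. Heights were compared only within a list. The lists hold no read counts, so the depth behind a peak could not be computed; the study's library totals differ, that for Rfx2 being the smallest of the 4.

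Coordinates were used with GRCm38.p6, and 0 peaks ran past a chromosome end. TSSs were those of curated RefSeq transcripts, and the main TSS of a gene was that of its oldest coding record. Peaks over the gene span that touched none of its promoter windows were counted in the body. Percentiles give the share of promoter (or body) peaks of the list that were lower. Intervals are exact (Clopper-Pearson) 95% intervals. The members, the lists of related genes and markers and the motifs were chosen with earlier results of these data known. By rule all 10 members are named, with opposite genes starting within 1 kb and, of the related genes, those with Rfx2 or without H3K4me3 at the promoter, the 3 highest and 3 lowest MOF scores, and any 5 or fewer in the state of a member. Other related genes with MOF, Lzts2, Rnf126, Fanci, Krt1 and Krt10 were named after their values were seen.

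Python 3 scripts (pandas and scipy) were tested on simulated data, where bedtools gave another overlap at 0 of 5000 windows, and 1600 of 1600 planted motifs were recovered.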

Additional observations from a re-analysis of the deposited data

How the results depend on the processing

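No paired analysis was possible because only 1 peak list per antibody was used. The GENCODE transcripts were added after seeing the data, and the other alternatives were planned. Of 82 values recomputed, 52 stayed within 1.5 times the main count (or 10 percentile points), 12 moved further, and 18 were Rfx2 counts of 0 that stayed at 0 and say nothing of stability. Requiring the peak centre in the window lowered H3K27ac to 3 of 10 members and 39 of 69 related genes, H3K4me3 to 34 and MOF to 18 of the related genes, and MOF with both marks to 0 members; a stricter rule can only lower a count. Keeping the 50% of peaks with the highest MOF score, or −log10 q in the other lists, left MOF, alone or with both marks, at 1 member and MOF at 17 related genes, for the same reason. GENCODE transcripts added Polrmt and Polg, so that 4 members had MOF, alone or with both marks; they hold more starts. By −log10 q in place of fold enrichment the median percentile of the members rose to 79.5 for H3K4me3 and 71.8 for H3K27ac, and the cause was not tested. No value could be had for Rfx2 heights, since no member had a peak.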

Other observations

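The Rfx2 list is short, with 337 peaks, and the median distance from a gene's closest start to the nearest of them was 2210 kb over all genes and 1240 kb over the 10 members, 4 of which lay above the former. The nearest to a member was 20.6 kb upstream of Polrmt at 79767142 to 79767754 of chromosome 10, with a fold enrichment of 15.9 and its centre 496 bp from the TSS of Rnf126. Next came a peak 73.7 kb from the Polg TSS, at 79392287 to 79392556 of chromosome 7 (8.47), 83 bp from the TSS of Fanci, a DNA repair gene. For the other 8 members the nearest Rfx2 peak was at least 563 kb away.

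The MOF peak near the Polrmt TSS was richer in repeats (23.2% of bases soft-masked) and poorer in GC (46.8%) than the peaks at Polg2 (57%) and Gabpa (59.4%), against a median GC content of 52.6% over all MOF peaks.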
